A study of Mus musculus with 48 samples.

Results

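The genes followed here belong to the prostaglandin pathway, 10 of the 50763 gene entries in the count tables (the biosensor sequence not counted). They were taken by symbol, with no use of measured values: the cyclooxygenases Ptgs1 and Ptgs2, the terminal synthases Ptges, Ptgis and Ptgds, the catabolic enzyme Hpgd, and the 4 receptors of prostaglandin E2, Ptger1 to Ptger4. The cells were primary cultures from 4 lines of mice, each heterozygous for an allele that encodes a BERKY3 biosensor, a reporter of the active form of the G protein alpha subunit that gives the line its name (Gas*-BERKY3, Gai*-BERKY3, Gaq*-BERKY3 or Ga13*-BERKY3). Astrocytes came from the brain of the Gas line, plated at 430000 cells per well, and fibroblasts from the lungs of the Gai, Gaq and Ga13 lines, plated at 160000 cells per well. Each line had 4 groups of 3 libraries: unstimulated or stimulated cells, each with AAV2/1-CMV-empty (biosensor off) or AAV2/1-CMV-Cre (biosensor on), with virus at a dilution of 500-fold (astrocytes) or 1000-fold (fibroblasts). Stimulation lasted 90 min, with 1 µM isoproterenol, an agonist of beta-adrenergic receptors, for astrocytes and 100 µM TRAP-6, a peptide agonist of the thrombin receptor PAR1, for fibroblasts. Every group thus carried the biosensor allele and a virus, and cells without either were not analysed here, so Cre and the biosensor cannot be told apart. The CMV promoter of the virus is active in many cell types. The labels give neither the age nor the sex of the mice, nor how many mice each line's cells came from. Replicates carry a number and nothing more, so the p-values rest on the spread among libraries that may be technical repeats.

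Prostaglandins are made from arachidonic acid. The cyclooxygenases convert it to prostaglandin H2, and terminal synthases turn that into prostaglandin E2, D2 or prostacyclin. Ptgs1 is known as the constitutive cyclooxygenase and Ptgs2 as the inducible one, an early-response gene in many cells. Lung fibroblasts are a known source of prostaglandin E2, which acts on them through the Gas-coupled receptors EP2 and EP4 to restrain proliferation and collagen synthesis. In the brain, prostaglandins from glia take part in inflammation, blood flow and sleep.

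The 48 libraries held 15.6 to 42.6 M counts each (M stands for 1000000). A level in CPM is a gene's share of its library, in counts per 1000000. The biosensor sequence stood at 0 to 1.05 CPM in the libraries with empty virus and at 19.1 to 137 CPM in those with Cre. The 8 astrocyte markers (Gfap, Aqp4 and others) summed to 8599 to 9437 CPM in the Gas libraries, and the 8 fibroblast markers (Col1a1, Dcn and others) to 27876 to 48770 CPM in the fibroblast libraries. The Gas libraries also held fibroblast markers (1644 to 2056 CPM) and markers of microglia and macrophages (240 to 274 CPM), and the latter list summed to 125 to 201 CPM in Gai, 61.4 to 86.9 in Gaq and 35.7 to 47.6 in Ga13. In bulk RNA, fewer cells of a type and less RNA per cell cannot be told apart. In the Gai line the 4 libraries numbered 1, one in each group, stood apart: their deviations from the group means correlated with one another at r of 0.298 to 0.368 across genes. Pairs of libraries both numbered 2 or both numbered 3 had r of 0.0309 to 0.172, and pairs with different numbers -0.296 to 0.255. Deviations sum to 0 within a group, so these ranges are not independent of one another. Results that change without them are given with and without them, a choice made after seeing the data, their low Ptgs2 included.

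Ptgs2 and Ptger4 are the members that changed in astrocytes, in opposite directions, and the letters around their starts are printed here for that reason. They come from RefSeq on GRCm38.p6, an earlier build than that of the counts, and the table held 8 of the 10 members (not Ptgis or Ptger1). The first 2 sequences are the 250 bases before each start, and the third a stretch of 30 bases just after the RefSeq start of Ptgs2. Its capitals mark overlapping letters of a short CRE, the element bound by CREB, and of an E-box. The transcribed part in its label means only the bases after the RefSeq start.
Ptgs2 upstream, chr1:150099781-150100030, plus strand: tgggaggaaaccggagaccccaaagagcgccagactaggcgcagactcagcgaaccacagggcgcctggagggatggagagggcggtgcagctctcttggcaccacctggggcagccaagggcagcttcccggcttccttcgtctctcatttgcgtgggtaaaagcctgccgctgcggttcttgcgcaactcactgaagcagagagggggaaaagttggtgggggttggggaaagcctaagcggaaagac
Ptger4 upstream, chr15:5244188-5244437, minus strand: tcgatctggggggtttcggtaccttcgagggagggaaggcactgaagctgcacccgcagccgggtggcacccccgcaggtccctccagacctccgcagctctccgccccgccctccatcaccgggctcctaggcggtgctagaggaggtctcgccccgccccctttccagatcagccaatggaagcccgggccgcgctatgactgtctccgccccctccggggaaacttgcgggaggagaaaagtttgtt
Ptgs2 from base 4 to base 33 of the transcribed part, chr1:150100034-150100063, plus strand: gtcaccactaCGTCACGTGgagtccgcttt

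A set of 5 motifs was searched on both strands in the 300 bases from 250 before to 50 after each start. The full CRE (TGACGTCA) was in 1.79% of the 32851 promoters of the table and in none of the 8 members. The short CRE (TGACG), which the full one contains, was in 20.8% of promoters and, among the members, in Ptgs2, where it starts 14 bases after the RefSeq start on the minus strand and shares letters with an E-box (CACGTG, 7.15% of promoters). An overlapping CRE and E-box is known from studies of the mouse Ptgs2 promoter. Positions here count from the RefSeq start, and whether transcription starts there in these cells was not tested. An AP-1 motif (TGANTCA, 7.81% of promoters) was found before Ptgds and a TATA box (TATAAA, 13.6%) in Hpgd. Ptgs1, Ptges, Ptger2, Ptger3 and Ptger4 held none of the 5, which says only that these letters are not in the window.

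Both cyclooxygenases, the synthases Ptges and Ptgis and the receptors Ptger4 and Ptger2 stood higher in fibroblasts than in astrocytes, while Ptgds was counted almost only in astrocytes. Cell type, line, plating and agonist differ together between the lines, so these levels are a description with no test. Between the 12 astrocyte and the 36 fibroblast libraries 7 of the 10 genes did not overlap, and Hpgd, Ptger1 and Ptger3 did. Of the 19136 genes tested in any line, 53.5% did not overlap either, so separation is common between these libraries.

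**Figure D1:**
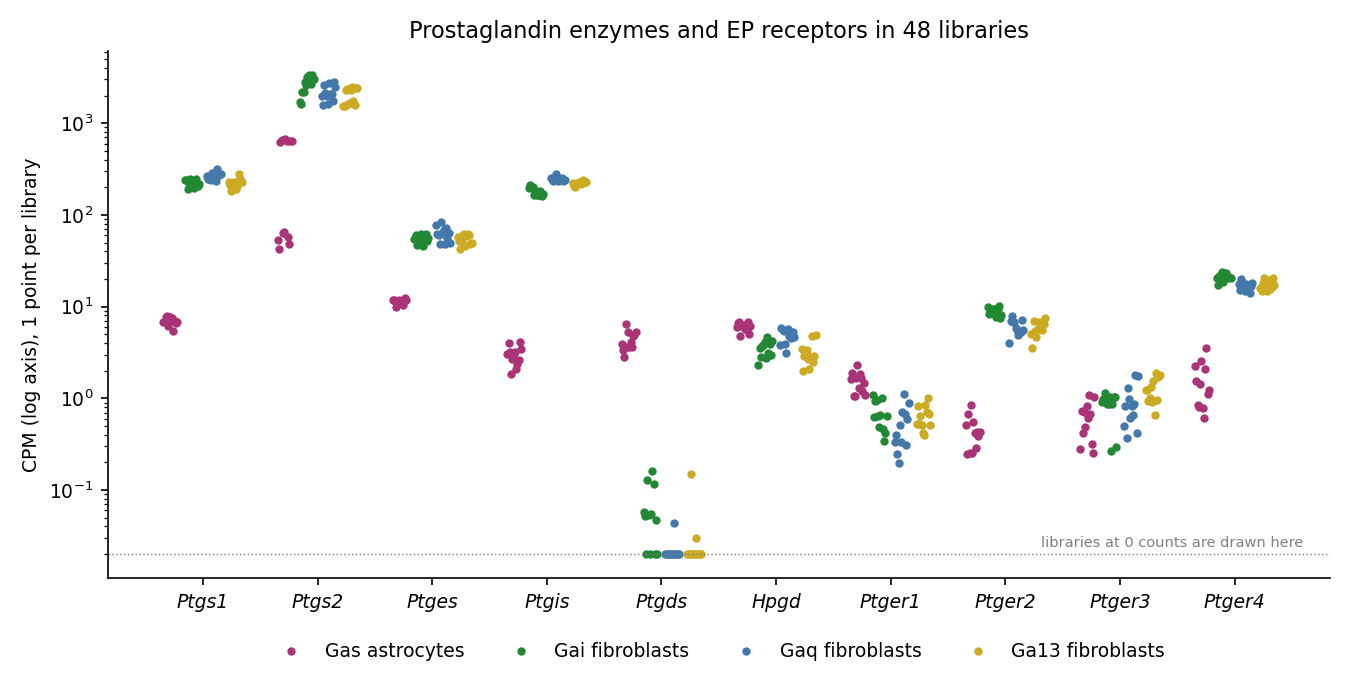
Level of each of the 10 genes in every library, in CPM on a log axis, with 1 point per library and colours for the 4 lines. Ptgs1, Ptgs2, Ptges, Ptgis, Ptger2 and Ptger4 lie higher in all 36 fibroblast libraries than in any of the 12 astrocyte libraries, and Ptgds lies lower. Libraries with 0 counts are drawn on the dotted line.

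Ptgs1 stood at 5.45 to 7.82 CPM in astrocytes and at 183 to 318 CPM in fibroblasts. Ptgs2 was the most abundant of the 10 in every line once levels were divided by exon length: means were 76.4 CPM per kb in astrocytes and 579, 470 and 435 in Gai, Gaq and Ga13 fibroblasts, against 1.79 and 57.3, 68.0 and 57.2 for Ptgs1. The prostacyclin synthase Ptgis stood at 1.83 to 4.07 CPM in astrocytes and at 160 to 282 CPM in fibroblasts, a mean ratio of 73.5. Its mean per kb of exon in fibroblasts (70.3, 95.9 and 86.7 CPM per kb in Gai, Gaq and Ga13) lay above that of Ptges (13.9, 15.9 and 13.8), the inducible synthase of prostaglandin E2. In astrocytes Ptges had the higher mean of the pair, 2.90 against 1.15 CPM per kb. Ptgds, the lipocalin-type synthase of prostaglandin D2 and a known product of leptomeninges and oligodendrocytes, stood at 2.83 to 6.40 CPM in astrocytes. In fibroblasts it gave 18 counts over all 36 libraries and did not pass the filter on low counts in any of the 3 lines. Leptomeningeal markers summed to 285 to 357 CPM and oligodendrocyte markers to 802 to 953 CPM in the astrocyte libraries, and their part in the Ptgds level was not tested.

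Hpgd, which inactivates prostaglandin E2 by oxidation, was low throughout, at 4.77 to 6.87 CPM in astrocytes and 1.98 to 5.87 CPM in fibroblasts. Among the receptors Ptger4, which encodes EP4, led in fibroblasts with 14.2 to 23.7 CPM and was far lower in astrocytes (0.612 to 3.50 CPM). Ptger2, which encodes EP2, stood at 3.51 to 10.2 CPM in fibroblasts and at 0.245 to 0.842 CPM in astrocytes. Ptger3, whose product EP3 couples to Gai, stayed between 0.251 and 1.87 CPM in all 48 libraries. Ptger1, whose product EP1 signals through calcium, stayed between 0.195 and 2.29 CPM. Per kb of exon the receptor means in Gai fibroblasts were 3.16 CPM for Ptger4, 1.70 for Ptger2, 0.151 for Ptger3 and 0.126 for Ptger1.

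Ordered by mean over the 16 groups, most neighbours overlapped. For Hpgd and Ptger3 all 15 neighbouring pairs of groups overlapped, and for Ptgs1, Ptgds, Ptger1 and Ptger2 14 of 15 did. Ptgs2 had 4 separated neighbours: both stimulated astrocyte groups lay above both unstimulated ones, all fibroblast groups above those, and among fibroblasts the group of unstimulated Gaq cells with empty virus was apart from its neighbours above and below. The highest group mean of Ptgs2 was 2931 ± 638 CPM (SD, n = 3) in stimulated Gai cells with empty virus, and the lowest was 52.3 ± 12.3 CPM in unstimulated astrocytes with Cre.

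In a GENCODE annotation of GRCm38 the exons of Ptgs1, Ptgis, Ptger1, Ptger2 and Ptger4 overlap a gene on the other strand. Whether reads were counted by strand is not given in the sources used here, so counts of these 5 genes are uncertain to that extent. Ptgs2, Ptges, Ptgds, Hpgd and Ptger3 overlap no other exon there.

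Isoproterenol raised Ptgs2 12.1-fold in astrocytes, whichever virus the cells carried, and lowered Ptger4 to 0.415 of its level. In unstimulated astrocytes Ptgs2 stood at 52.7, 63.9 and 57.5 CPM with empty virus and at 42.1, 65.9 and 48.7 CPM with Cre. After 90 min of isoproterenol it stood at 630, 670 and 635 CPM with empty virus and at 662, 632 and 639 CPM with Cre. All 6 stimulated libraries lay above all 6 unstimulated ones, and the viruses overlapped in both states. The log2 change averaged over the viruses was 3.59 ± 0.10 (SE of the fit), a 12.1-fold rise (edgeR quasi-likelihood test, Benjamini-Hochberg adjusted p = 2.34e-09 over all genes tested).

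**Figure D2:**
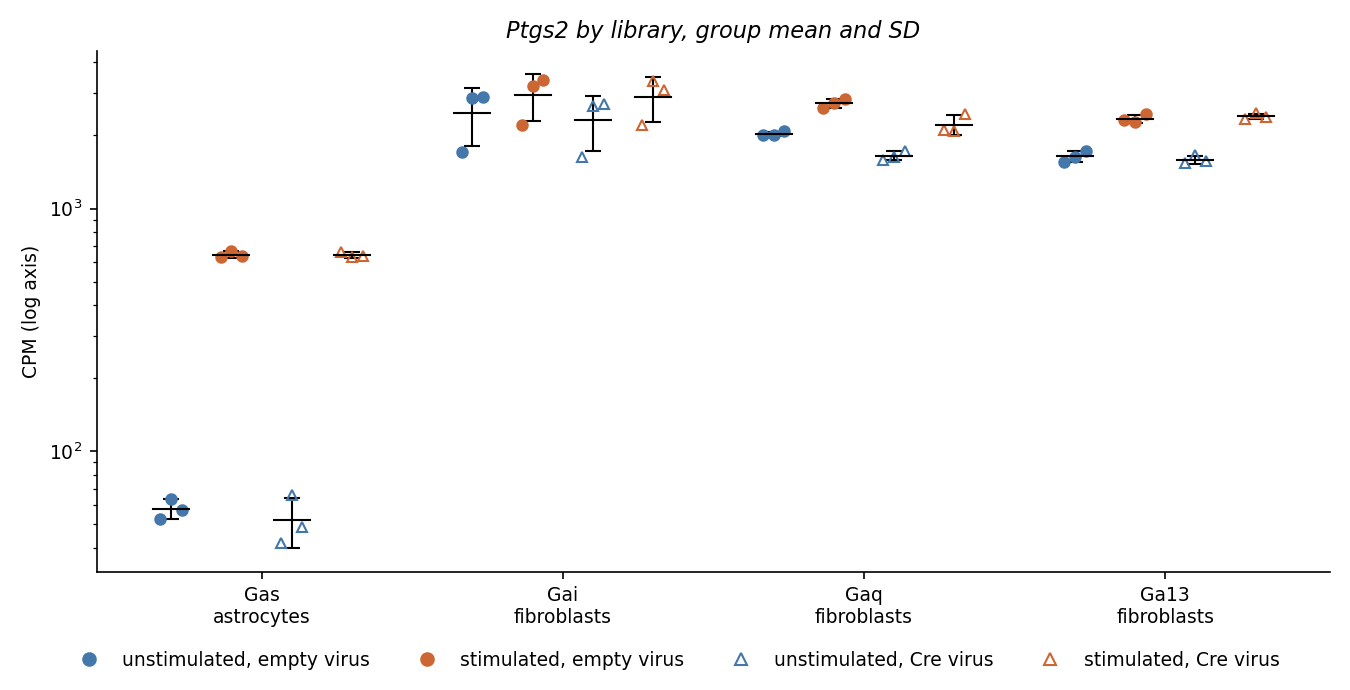
Ptgs2 in CPM on a log axis for the 16 groups, with 1 point per library, the group mean as a line and the SD as bars. Stimulated astrocytes (630 to 670 CPM) lie far above unstimulated ones (42.1 to 65.9 CPM), and in Gaq and Ga13 fibroblasts the stimulated libraries of each virus lie above the unstimulated ones. In each Gai group 1 library, numbered 1, lies below the other 2.

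Ptger4 fell. It stood at 2.27, 1.44 and 2.10 CPM in unstimulated astrocytes with empty virus and at 1.53, 2.58 and 3.50 CPM with Cre. After isoproterenol the values were 0.839, 0.793 and 1.11 CPM with empty virus and 0.812, 0.612 and 1.25 CPM with Cre. The stimulated libraries lay below the unstimulated ones with no overlap, and the log2 change was -1.27 ± 0.24 (edgeR adjusted p = 9.12e-05). Counts were few, between 13 and 121 per library, and the exons overlap Ttc33 and another gene on the opposite strand.

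The other 8 members did not pass the test in astrocytes. Ptgs1 had a log2 change of 0.18 ± 0.10 (edgeR adjusted p = 0.247; 95% interval -0.02 to 0.38), and Ptges one of 0.04 ± 0.08 (0.828; -0.12 to 0.20). The log2 changes of Ptgds (0.18 ± 0.15), Hpgd (-0.07 ± 0.11) and Ptgis (0.08 ± 0.17) were within 2 SE of 0. For the receptors they were -0.33 ± 0.23 (Ptger1), 0.14 ± 0.39 (Ptger2) and 0.25 ± 0.37 (Ptger3). Thus 2 of 10 members were called, 1 in each direction, where 23.3% of all 18103 genes tested were called, a share near that of genes in general. The median log2 change of the members was 0.11, and that of all genes -0.0037. In the same comparison 3 of 8 astrocyte markers rose, and of 10 markers of microglia and macrophages 4 rose and 1 fell, with a median log2 change of 0.14. The summed level of the latter was 240 to 266 CPM in unstimulated and 251 to 274 CPM in stimulated libraries. Their part in the changes of Ptgs2 and Ptger4 was not tested.

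**Figure D3:**
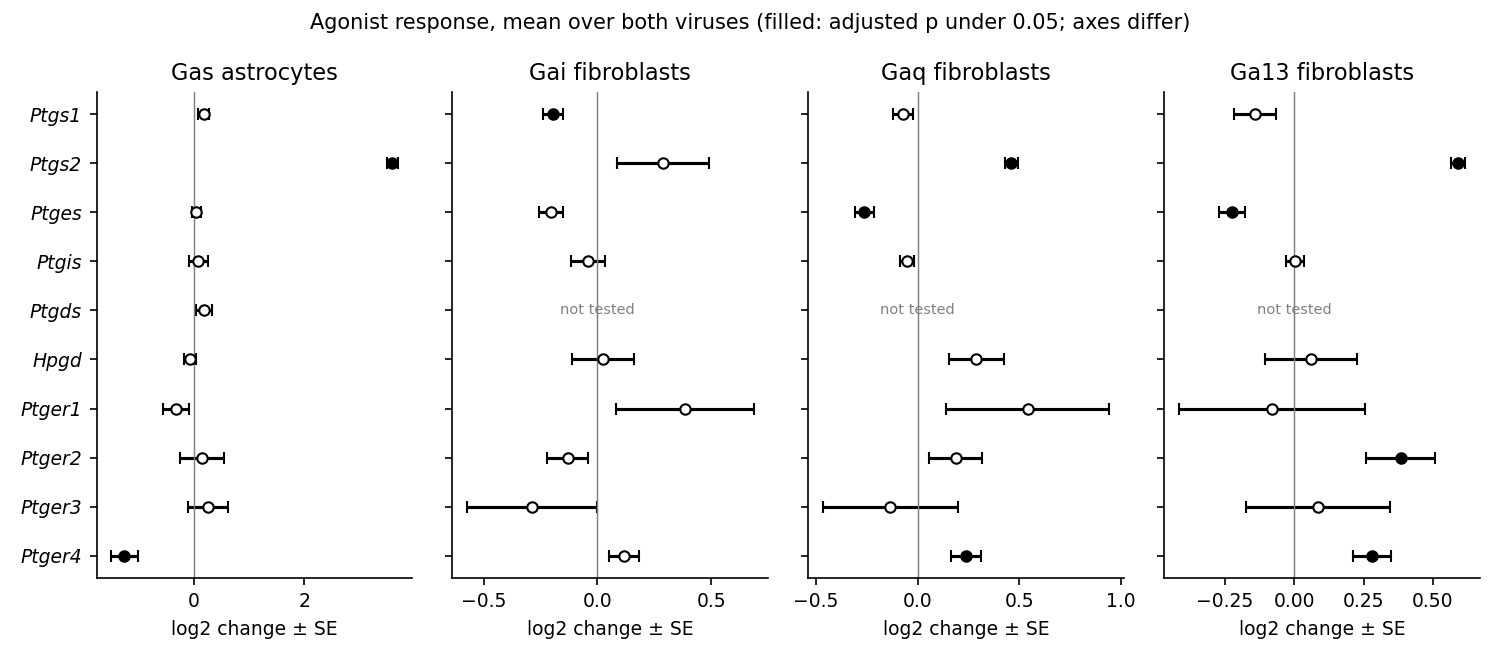
Log2 change after agonist, averaged over both viruses, with SE bars, for the 10 members in each line (isoproterenol in Gas, TRAP-6 in the others; the horizontal axes differ). Filled points passed the test: Ptgs2 and Ptger4 in Gas, Ptgs1 in Gai, Ptgs2, Ptges and Ptger4 in Gaq, and Ptgs2, Ptges, Ptger2 and Ptger4 in Ga13.

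TRAP-6 gave small changes in lung fibroblasts, from a high resting level. In Ga13 and Gaq cells Ptgs2 and Ptger4 rose and Ptges fell, and in Ga13 cells Ptger2 rose as well. The calls of Ptger4 in Gaq and of Ptger2 in Ga13 were near the threshold. In Gai cells Ptgs1 was the one member called in the main fit of all libraries, and it fell. A second fit of the same libraries, with a term for the replicate number (a replicate block), also called Ptgs2 and Ptges.

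Ptgs2 in Ga13 fibroblasts stood at 1552, 1637 and 1734 CPM at rest with empty virus and at 1548, 1662 and 1568 CPM with Cre. With TRAP-6 it stood at 2309, 2282 and 2444 CPM and at 2337, 2464 and 2392 CPM. The states did not overlap under either virus, and the log2 change was 0.59 ± 0.03, or 1.51-fold (edgeR adjusted p = 5.3e-18). In Gaq fibroblasts the resting values were 2006, 2005 and 2083 CPM with empty virus and 1589, 1636 and 1729 CPM with Cre. With TRAP-6 they were 2597, 2715 and 2815 CPM and 2109, 2095 and 2454 CPM. Within each virus the stimulated libraries were all higher, by a log2 change of 0.46 ± 0.03 (edgeR adjusted p = 4.48e-12).

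In Gai fibroblasts Ptgs2 was not called in the main fit of all libraries. It stood at 1717, 2843 and 2868 CPM at rest with empty virus and at 1633, 2644 and 2692 CPM with Cre, in the order of the numbers 1 to 3. With TRAP-6 it stood at 2201, 3211 and 3381 CPM and at 2208, 3351 and 3070 CPM. The library numbered 1 was the lowest of its group in all 4, and the states overlapped under both viruses. Within each virus every stimulated library lay above the unstimulated one of the same number. The log2 change was 0.29 ± 0.20 (edgeR adjusted p = 0.762) with all 12 libraries, and 0.24 ± 0.03 (edgeR adjusted p = 5.11e-07) without the 4 numbered 1. Their low Ptgs2 was part of the reason to leave them out, so the second p-value is not an independent test. With all 12 libraries and a replicate block the log2 change was 0.31 ± 0.03 (edgeR adjusted p = 3.02e-07). Fibroblast markers summed to 39235 to 41578 CPM in those 4 libraries and to 27876 to 32668 CPM in the other 8, and whether that bears on the Ptgs2 level was not tested.

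Ptgs1 moved little. In Gai cells it stood at 242, 247 and 227 CPM at rest and at 191, 206 and 208 CPM with TRAP-6 with empty virus, and at 241, 228 and 248 CPM and then 222, 196 and 215 CPM with Cre. The stimulated libraries were lower without overlap under both viruses, by a log2 change of -0.19 ± 0.04 (edgeR adjusted p = 0.0363). That call was lost in 9 of the 12 fits that left out 1 library (adjusted p up to 0.121), and it was kept without the 4 libraries numbered 1 (-0.20 ± 0.04, 0.00116). In the main fits Ptgs1 was not called in Gaq (-0.07 ± 0.05, 0.541) or Ga13 (-0.14 ± 0.08, 0.386). With a replicate block the Ga13 fall was called (-0.14 ± 0.03, edgeR adjusted p = 2.06e-05). Ratios of stimulated to unstimulated Ga13 libraries of the same number and virus ran from 0.798 to 0.972.

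Ptges fell with TRAP-6. In Gaq cells it went from 76.9, 84.4 and 72.8 CPM to 60.2, 68.4 and 62.9 CPM with empty virus, and from 61.6, 63.6 and 55.6 CPM to 48.5, 47.9 and 48.8 CPM with Cre. The stimulated libraries were the lower ones under each virus, by a log2 change of -0.26 ± 0.05 (edgeR adjusted p = 0.000182). In Ga13 cells the log2 change was -0.23 ± 0.05 (edgeR adjusted p = 0.00127): with empty virus Ptges went from 57.3, 59.8 and 61.9 CPM to 42.5, 45.8 and 48.4 CPM, and with Cre the states overlapped (52.4, 61.6 and 60.8 CPM against 51.2, 58.5 and 49.3 CPM). With Cre alone the Ga13 change was -0.10 ± 0.07 and did not pass (adjusted p = 0.509). In Gai cells it was -0.20 ± 0.05, which did not pass in the main fit of all libraries (edgeR adjusted p = 0.0863). It passed without the 4 numbered 1 (-0.20 ± 0.06, 0.0316), and with all libraries and a replicate block (-0.20 ± 0.04, 0.00309).

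Among the receptors Ptger4 rose in Ga13 cells, from 16.1, 17.5 and 15.5 CPM to 18.0, 19.4 and 20.4 CPM with empty virus and from 14.9, 14.7 and 16.2 CPM to 20.4, 16.6 and 17.3 CPM with Cre. The states did not overlap, and the log2 change was 0.28 ± 0.07 (edgeR adjusted p = 0.00577). With 1 virus at a time, a contrast of fewer libraries within the same fit, it was not called (edgeR adjusted p = 0.162 with empty virus and 0.0711 with Cre). In Gaq cells Ptger4 changed by 0.24 ± 0.07 (edgeR adjusted p = 0.0491), a call lost in 9 of the 12 fits that left out 1 library (up to 0.174). There the states overlapped with empty virus and not with Cre, and neither virus alone gave a call (edgeR adjusted p = 0.476 with empty virus and 0.16 with Cre). Ptger2 in Ga13 cells changed by 0.38 ± 0.12 (edgeR adjusted p = 0.0475), with overlap between the states under both viruses (4.99, 4.71 and 6.47 CPM at rest and 6.93, 6.83 and 6.39 CPM with TRAP-6 for empty virus) and the call lost in 8 of 12 such fits (up to 0.163). In Gai cells Ptger4 (0.12 ± 0.07) and Ptger2 (-0.13 ± 0.09) were not called.

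**Figure D4:**
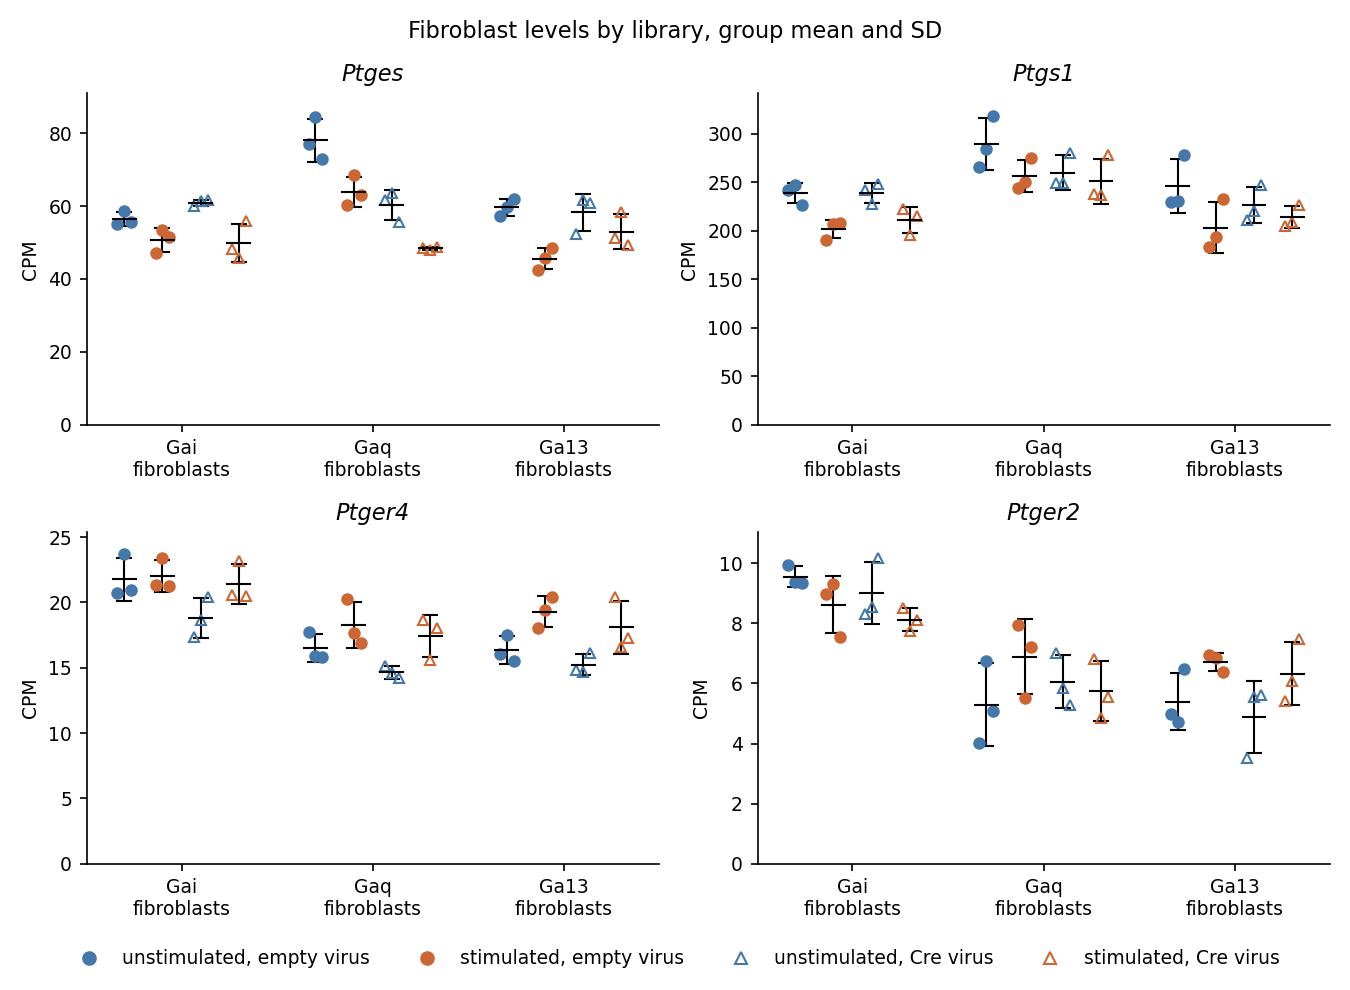
Ptges, Ptgs1, Ptger4 and Ptger2 in CPM in the 12 fibroblast groups, with 1 point per library, the group mean as a line and the SD as bars. Ptges is lower with TRAP-6 in Gaq cells under both viruses and lower with Cre than with empty virus there, and Ptger4 is higher with TRAP-6 in Ga13 cells.

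Ptgis, per kb the most abundant in these fibroblasts of the member synthases Ptges, Ptgis and Ptgds, was not called in any fibroblast line. Its log2 changes were -0.04 ± 0.07 in Gai, -0.05 ± 0.03 in Gaq and 0.00 ± 0.03 in Ga13. The 95% interval in Ga13 was -0.06 to 0.06. Hpgd, Ptger1 and Ptger3 were not called either, with SE of 0.14 to 0.40. Members called were 1 of 9 tested in Gai (down), 3 of 9 in Gaq (2 up, 1 down) and 4 of 9 in Ga13 (3 up, 1 down). The shares of all genes called were 1.12% of 15980 in Gai, 5.61% of 15528 in Gaq and 8.38% of 15835 in Ga13. The median log2 change of the members was -0.04, 0.19 and 0.06 in the 3 lines, beside -0.0017, -0.0063 and -0.0016 for all genes. Ptgds was not tested in fibroblasts. Of the 8 fibroblast markers none was called in this response in Gai and 1 fell in each of Gaq and Ga13.

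The response to TRAP-6 was compared between the lines in 1 fit of all 36 fibroblast libraries, as 3 pairwise differences, and no member was called. For Ptgs2 the response was larger by a log2 of 0.17 ± 0.17 in Gaq than in Gai (edgeR adjusted p = 0.988), by 0.30 ± 0.17 in Ga13 than in Gai (0.745; 95% interval -0.04 to 0.64) and by 0.13 ± 0.17 in Ga13 than in Gaq (0.982; -0.21 to 0.47). Without the 4 Gai libraries numbered 1, the same Ptgs2 differences were 0.22 ± 0.05 (edgeR adjusted p = 0.0086), 0.35 ± 0.05 (2.2e-06) and 0.13 ± 0.04 (0.502). Gaq and Ga13 were then called above Gai. Those 4 libraries were left out in part because their Ptgs2 was low, so these p-values are not an independent test of Ptgs2. With all 36 libraries and a replicate block, Ga13 was called above Gai (0.28 ± 0.04, edgeR adjusted p = 4.41e-05) and Gaq was not. Ptger2 had a difference of 0.51 ± 0.17 between Ga13 and Gai (edgeR adjusted p = 0.335). At an unadjusted p under 0.05 the members numbered 0, 1 and 0 of 9 in the 3 differences, beside 923, 1294 and 851 of all 16749 genes, and DESeq2 called 0 in each. Of all 16749 genes 0.137%, 0.316% and 0% were called. Each line's cells are a separate isolation, which cannot be told apart from the line.

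Ptgs2 and Ptges were lower with Cre than with empty virus in Gaq fibroblasts, at rest and with TRAP-6 alike, and no member was called for the virus in the other lines. Gaq cells with Cre held 1651 ± 71.3 CPM of Ptgs2 at rest (SD, n = 3) against 2031 ± 44.6 CPM with empty virus, and 2220 ± 203 against 2709 ± 109 CPM with TRAP-6. The viruses did not overlap in either state. The mean log2 difference was -0.29 ± 0.03 (edgeR adjusted p = 1.82e-07). Ptges stood at 60.3 ± 4.19 CPM with Cre against 78.0 ± 5.90 CPM at rest, and at 48.4 ± 0.461 against 63.8 ± 4.21 CPM with TRAP-6. Again the viruses did not overlap, and the mean log2 difference was -0.38 ± 0.05 (edgeR adjusted p = 6.28e-07). These were 2 of 9 members, both down, where 6.5% of all genes tested were called for the virus. Of the 4 Gaq groups the one with Cre and TRAP-6 was the lowest for Ptges, and the one with Cre at rest the lowest for Ptgs2.

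In the same comparison 7 of 8 fibroblast markers rose with Cre, with a median log2 difference of 0.16. Their summed level was 36263 to 39170 CPM with empty virus and 41659 to 46660 CPM with Cre. Of the mesothelial markers 2 of 5 rose (median 0.34; sums of 363 to 469 CPM with empty virus and 466 to 561 CPM with Cre), and of those of smooth muscle and pericytes 3 of 7 (median 0.13; 2507 to 2627 and 2601 to 3059 CPM). The part of these lists in the lower Ptgs2 and Ptges was not tested. The same virus contrast gave log2 differences for Ptgs2 of -0.07 ± 0.09 in Gas, -0.06 ± 0.20 in Gai and -0.01 ± 0.03 in Ga13, and for Ptges of -0.01 ± 0.08, 0.04 ± 0.05 and 0.09 ± 0.05. Whether the virus effect differs between lines was not tested. The shares of all genes called for the virus were 0.0552% in Gas, 0.00626% in Gai and 0.0568% in Ga13. At an unadjusted p under 0.05 the members numbered 2 of 10, 1 of 9 and 0 of 9 there, beside 1249 of 18103, 459 of 15980 and 808 of 15835 of all genes, and DESeq2 called none of them.

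In the main fits the agonist response of the members was not called as different between the viruses in any line. A replicate block called the difference for Ptgs1 in Ga13 (0.21 ± 0.05, edgeR adjusted p = 0.0244). For Ptgs2 the difference of the log2 response, Cre minus empty, was 0.12 ± 0.19 in Gas, 0.05 ± 0.41 in Gai, 0.01 ± 0.06 in Gaq and 0.09 ± 0.05 in Ga13. The 95% intervals were -0.25 to 0.49 in Gas and -0.11 to 0.14 in Gaq. Hpgd in Ga13 cells had a difference of 1.15 ± 0.33, which did not pass (edgeR adjusted p = 0.249). With empty virus it went from 3.47, 3.37 and 4.73 CPM to 2.87, 2.07 and 2.92 CPM, and with Cre from 1.98, 2.70 and 2.48 CPM to 3.14, 2.82 and 4.89 CPM. The states did not overlap under either virus and went in opposite directions, on 36 to 191 counts per library. Shares of all genes called were 0% in Gas and Gai, 0.161% in Gaq and 0.0821% in Ga13. Members at an unadjusted p under 0.05 numbered 1 of 10 in Gas, 0 of 9 in Gai and Gaq and 2 of 9 in Ga13, beside 631, 345, 1062 and 1214 of all genes in Gas, Gai, Gaq and Ga13, and DESeq2 called none.

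Around the 10 genes, 45 others of eicosanoid synthesis, transport, breakdown and sensing were listed. In astrocytes 5 of the 33 that passed the filter were called after isoproterenol, 3 up and 2 down, where 23.3% of all genes were called, with a list median of 0.08 beside -0.0037 for all genes. Ptgfr, the receptor of prostaglandin F2 alpha, rose from 11.5, 14.8 and 11.3 CPM to 37.6, 32.0 and 36.5 CPM with empty virus and from 12.2, 12.8 and 12.3 CPM to 33.8, 31.5 and 35.1 CPM with Cre. The states were well apart, with a log2 change of 1.52 ± 0.07, or 2.87-fold (edgeR adjusted p = 2.98e-19). It was the only one of the 5 listed receptors outside the EP family that passed the filter in astrocytes, and its exons overlap a gene on the other strand. Hpgds, the hematopoietic synthase of prostaglandin D2 and in the brain a gene of microglia, rose by a log2 of 0.57 ± 0.10 (edgeR adjusted p = 2.3e-05), from 5.81 to 6.92 CPM in the 6 unstimulated libraries to 7.80 to 11.5 CPM in the 6 stimulated ones. In the same comparison 4 of the 10 markers of microglia and macrophages rose and 1 fell, with a median log2 change of 0.14. Their sum was 240 to 266 CPM in unstimulated and 251 to 274 CPM in stimulated libraries. The part of these cells in the rise of Hpgds was not tested.

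**Figure D5:**
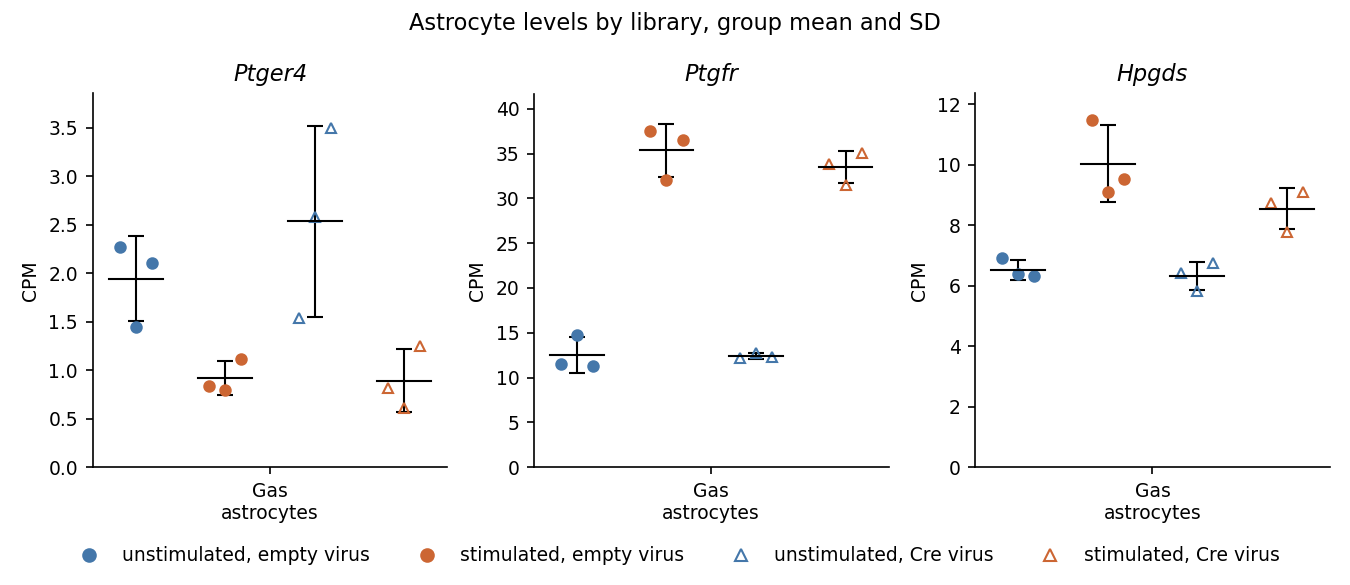
Ptger4, Ptgfr and Hpgds in CPM in the 4 astrocyte groups, with 1 point per library, the group mean as a line and the SD as bars. After isoproterenol Ptger4 lies lower (0.612 to 1.25 CPM) and Ptgfr (31.5 to 37.6 CPM) and Hpgds (7.80 to 11.5 CPM) lie higher than in unstimulated cells, under both viruses.

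Smaller changes in astrocytes were those of Acsl4, an acyl-CoA synthetase that prefers arachidonate (0.18 ± 0.05), of Dagla, which makes the endocannabinoid 2-AG (-0.31 ± 0.07), and of Ptgr3, a reductase of 15-keto prostaglandins (-0.24 ± 0.05). With empty virus alone Acsl4 (edgeR adjusted p = 0.325) and Dagla (0.16) did not pass, nor with Cre alone Ptgr3 (0.0784). In fibroblasts given TRAP-6 the list had 0 of 31 called in Gai, 1 of 31 in Gaq and 3 of 32 in Ga13, where 1.12%, 5.61% and 8.38% of all genes were called. In Gai 3 of the 31 had an unadjusted p under 0.05, beside 1543 of all 15980 genes. Without the libraries numbered 1 the number called was 2, beside 703 of all genes tested: Mgll rose (0.34 ± 0.06, edgeR adjusted p = 0.000276) and Ptgr3 fell (-0.17 ± 0.05, 0.0212). Acsl4 rose in Gaq (0.13 ± 0.03, edgeR adjusted p = 0.00521) and in Ga13 (0.30 ± 0.04, 4.34e-06). Pla2g4a, the cytosolic phospholipase that releases arachidonic acid, rose by 0.12 ± 0.03 in Ga13 (edgeR adjusted p = 0.00763), and Dagla fell by 0.35 ± 0.08 there on the log2 scale (0.00352). With empty virus alone neither Acsl4 (0.01 in Gaq, adjusted p = 0.969, and 0.14 in Ga13, 0.205) nor the Ga13 changes of Pla2g4a (0.06, 0.637) and Dagla (-0.24, 0.355) passed. With Cre alone 6 of the list were called in Ga13, those 3 and Akr1c18, Cysltr1 and Ptgir, beside 851 of all 15835 genes tested. With empty virus alone 0 of the list were called there, beside 614 of all genes. Acsl4 with Cre alone rose by 0.26 ± 0.04 in Gaq (edgeR adjusted p = 0.000169) and by 0.46 ± 0.05 in Ga13 (2.04e-06). Its difference between the viruses in Ga13 was not called in the main fit. That difference was called with DESeq2 (0.32 ± 0.08, adjusted p = 0.0441) and in edgeR with no filter on low counts (0.32 ± 0.06, 0.000251). The list medians were 0.02, -0.01 and 0.0023 in Gai, Gaq and Ga13. In the differences of the response between lines, 1 of 33 listed genes was called, Mgll between Ga13 and Gai (-0.35 ± 0.08, edgeR adjusted p = 0.0485), where 0.316% of all genes were called. Without the libraries numbered 1 that difference was -0.45 ± 0.08 (edgeR adjusted p = 8.57e-05), Acsl4 was called there too (0.37 ± 0.05, 5.95e-06), and Mgll was called between Gaq and Gai (-0.36 ± 0.08, 0.00557).

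For the virus in Gaq fibroblasts 6 of 31 genes of the list were called, 1 up and 5 down, where 6.5% of all genes were called, with a list median of -0.10. The count was 2 in unstimulated cells alone (Akr1c18 and Pla2g4a), beside 411 of all 15528 genes tested. Akr1c18, Tbxa2r and Mgll were singled out after their values were seen. Akr1c18, an aldo-keto reductase of steroids that was listed with the prostanoid synthases, stood at 15.7, 18.5 and 16.3 CPM at rest with empty virus and at 7.73, 6.64 and 8.76 CPM with Cre, and with TRAP-6 at 18.5, 15.7 and 22.4 CPM against 8.92, 7.68 and 10.1 CPM. The log2 difference was -1.10 ± 0.09 (edgeR adjusted p = 3.5e-10). Tbxa2r, the thromboxane receptor, was higher with Cre by 0.66 ± 0.13 (edgeR adjusted p = 0.000575), and Mgll, which breaks down 2-AG, was lower by a log2 difference of -0.16 ± 0.04 (0.0196). Pla2g4a (-0.25 ± 0.03), Dagla (-0.28 ± 0.07) and Ptgr3 (-0.15 ± 0.04) were lower with Cre as well. In unstimulated cells alone Dagla (-0.04, adjusted p = 0.946), Mgll (-0.05, 0.846), Tbxa2r (0.60, 0.0683) and Ptgr3 (-0.13, 0.381) were not called, and Ptgr3 was not called in stimulated cells alone either (0.141). In the other lines none of the 31 to 33 genes was called for the virus. At an unadjusted p under 0.05 the list had 1 in Gas, 0 in Gai and 2 in Ga13. Beside them stood 1249 of 18103, 459 of 15980 and 808 of 15835 of all genes.

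For the 3 members called in at least 2 lines, the genes with the most similar pattern over the 16 group means were sought among 11420 genes, after each line's mean had been subtracted. The correlations are descriptions, and the 4 groups of each line share its cells. Astrocytes gave the largest change of Ptgs2 and Ptger4, which weighs in r. Most like Ptgs2 were Gprc5a (r = 0.997), the phosphatase Ptp4a1 (0.996), the ERK pathway inhibitor Spry2 (0.996), the nuclear receptor Nr4a1 (0.994) and the AP-1 subunit Fosl2 (0.994). Gprc5a, an orphan receptor, changed after agonist by a log2 of 3.61 ± 0.19 in Gas, 0.70 ± 0.06 in Gaq, 0.70 ± 0.05 in Ga13 and 0.35 ± 0.11 in Gai. The Gai change was not called in the main fit (edgeR adjusted p = 0.233) and was called without the libraries numbered 1 (0.27, 0.005). Most like Ptger4 were Myh9 (0.980), Arc (0.974), Ccdc85b (0.970), Hbegf (0.969) and Egr3 (0.967). Arc, an immediate early gene, fell by 3.31 ± 0.07 in astrocytes on the log2 scale and rose by 0.52 ± 0.05 in Gai, 0.63 ± 0.12 in Gaq and 0.75 ± 0.04 in Ga13. The gene most like Ptges was less close (Zfand2a, 0.935), followed by the metalloproteinase inhibitor Timp2 (0.930).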

How the data were processed

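RNA of 48 libraries was selected for poly-A and sequenced, per the labels' protocols. The authors deposited raw counts of reads for each gene, in 1 table for each of the 4 lines. Per the submitters' processing notes fastp, Subread, featureCounts and GRCm39 were used, and their versions, the gene annotation and the strand setting are not given in the sources used here. Counts of genes that overlap another are therefore uncertain. Exon lengths and overlaps came from GENCODE on GRCm38, for lack of a GRCm39 annotation, and served only to divide levels by length and to mark overlapping genes.

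The biosensor sequence was left out of the gene counts. Each line was fitted alone (4 groups of 3 libraries) in R 4.3.3 with edgeR 4.0.16: filterByExpr, TMM scaling, robust quasi-likelihood F tests, two-sided, with p adjusted by Benjamini-Hochberg over all genes tested and a gene called below 0.05. Contrasts were the agonist response averaged over viruses, the virus effect averaged over states, and the difference between the responses. A fit of the 36 fibroblast libraries compared the TRAP-6 responses. Intervals are 1.96 SE. The fits were tested on simulated data. Alternatives were DESeq2 1.42.0, its size factors, other filters, a replicate block, 1 virus or state alone, leaving out each library, and, chosen after seeing the data, leaving out the 4 Gai libraries numbered 1, because Ptgs2 was low in each and their deviations correlated. The comparisons with 1 virus or state alone were contrasts within the same fit of all libraries of a line. Correlations used log2 CPM with a prior count of 2. No libraries agreed within sampling noise.

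The members, the gene lists and the tests were chosen with earlier results of these data known. Named were all 10 members, every other listed gene called in the agonist response of any line, and, for each member called in at least 2 lines, the 5 genes most like it (mean CPM of at least 1 in each line). Not all of the latter are reported here.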

Additional observations from a re-analysis of the deposited data

Results flagged for a closer look

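The response of Mgll, the monoacylglycerol lipase that breaks down 2-AG, differed between the Ga13 and Gai fibroblasts in the fit of all 36 fibroblast libraries, by a log2 of -0.35 ± 0.08 (edgeR adjusted p = 0.0485; Ga13 minus Gai). It was looked at because the test of the difference between the lines passed. The call was kept in 9 of the 36 fits that left out 1 library, with adjusted p up to 0.156, and was lost with DESeq2 size factors (0.054). Its exons overlap another gene on the opposite strand.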

How the results depend on the processing

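No called value changed sign under any alternative run. In astrocytes the 2 called members, and in Gaq cells the 2 members called for the virus, were called in every alternative. In Gai cells the members called in the agonist response numbered 1, and they numbered 2 with no filter on low counts, 3 without the libraries numbered 1, 0 with either virus alone, and 0 to 1 when 1 library was left out. In Ga13 cells the 4 members became 2 with empty virus alone and 1 with Cre alone, where fewer libraries enter the contrast within the same fit. Without the Gai libraries numbered 1, 1 member (Ptgs2) was called in the difference between Gaq and Gai and 1 between Ga13 and Gai, against 0 and 0. Low Ptgs2 was part of the reason for leaving these libraries out. The same settings were applied, after seeing the data, to the listed genes named: Ptgfr, Hpgds, Akr1c18 and, for the virus in Gaq, Pla2g4a were called in each, and the calls of Ptgr3 and Mgll for the virus in Gaq were lost in 7 and 4 of the 12 fits without 1 library (up to 0.127 and 0.0952). Gprc5a in Gai was called with DESeq2 (adjusted p = 0.0483) and with no filter (0.00165). Without a filter Ptger4 in Gaq lost its call (edgeR adjusted p = 0.0587).

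Same-numbered libraries did not deviate together in every pair (the lowest correlation was -0.0182 in Gas, 0.0309 in Gai, -0.0152 in Gaq and -0.00667 in Ga13), so the main fits did not take the numbers to pair the samples. Libraries correlating best with their own number were 10, 4, 8 and 11 of 12. In the same order, median r was 0.0313, 0.0982, 0.0487 and 0.0468 for same-numbered pairs. For pairs with different numbers it was -0.0158, -0.149, -0.0214 and -0.0192. Deviations from a group mean sum to 0 within the group, so these values are tied to those of same-numbered pairs and are not a separate comparison. The rule asked for every pair, so it cannot show that pairing is absent. With a replicate block the members called were 3 in the Gai response (Ptgs2 0.31 ± 0.03, adjusted p = 3.02e-07; Ptges -0.20 ± 0.04, 0.00309), 1 in the difference between the viruses in Ga13 (Ptgs1, 0.0244) and 1 in the difference between Ga13 and Gai (Ptgs2, 4.41e-05). It also added Ptgs1 in the Ga13 response (2.06e-05) and for the virus in Gaq (0.0216), and called Gprc5a in Gai (2.64e-05). Of the listed genes the block called 2 in the Gai response (Ptgr3 and Mgll), 2 between Ga13 and Gai (Mgll and Acsl4), and Acsl4 in the difference between viruses in Gaq (0.012) and Ga13 (0.000165).

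Counts over all genes moved by more than 1.5 times as follows. The agonist response in Gas (4211) gave 2653 and 2583 with empty or Cre virus alone, in Gaq (871) 411 and 523, in Ga13 (1327) 614 and 851. In Gai (179) it gave 19 and 38 there, 293 with DESeq2, 445 with no filter, 797 with the block and 703 without the libraries numbered 1. The virus effect in Gas (10) gave 19 with DESeq2, 41 with no filter, 18 with the block, and 1 and 3 in unstimulated and stimulated cells alone. In Gai (1) it gave 15, 23 and 29 in the same order, 0 with a CPM filter and in either state, and 24 without the libraries numbered 1. In Gaq (1010) it gave 411 and 529 by state, and in Ga13 (9) 16, 28, 41 and 1 in unstimulated cells. The difference between viruses in Gai (0) gave 2 with no filter, in Gaq (25) 67 with no filter and 91 with the block, and in Ga13 (13) 40 with DESeq2, 86 with no filter and 138 with the block. The difference between Gaq and Gai (23) gave 40 with DESeq2, 161 with the block and 132 without the libraries numbered 1, that between Ga13 and Gai (53) 83, 288 and 279, and that between Ga13 and Gaq (0) 7 with the block.

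Depth limits Ptger1, Ptger2 and Ptger3 in astrocytes and Ptger1 and Ptger3 in fibroblasts, which had 4 to 73 counts per library. It limits Ptger4 in astrocytes too, with 13 to 121 counts per library.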
